A study of Solanum commersonii and Solanum tuberosum with 8 samples.

Results

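The comparison described here is that of warm-grown Solanum commersonii plants carrying 35S::AtCBF3 with warm-grown wild type of the same species. S. commersonii is a freezing-tolerant wild potato. The transgene joins the constitutive 35S promoter of cauliflower mosaic virus to CBF3 of Arabidopsis. The data are the column of log2 ratios deposited for this comparison, and all 11366 array clones in it were taken, each with 1 value. The other 7 columns of the series have the same clones and serve as context. They are S. tuberosum, the cultivated potato, with the same transgene (2 lines on 2 slides), and wild type of each species after 2 h, 24 h and 7 d in the cold (3 slides each). Every plant was grown for 3 weeks at 25°C under 16 h of light and 8 h of darkness, at a light intensity of 350 in the labels' unit. Leaves of 3 independent transgenic S. commersonii lines were taken 8 h after dawn and gave 3 slides. Cold plants were moved to 2°C and a light intensity of 50 at 8 h after dawn. Their controls were wild-type plants kept warm for 2 h, or for 24 h in the case of the 24 h and 7 d columns.

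CBF proteins are plant transcription factors of the AP2/ERF family. In Arabidopsis they are induced within a short time of cold, bind the CRT/DRE element in promoters and raise cold-responsive genes such as COR and dehydrin genes. Constitutive CBF3 in Arabidopsis raises such genes without cold, increases proline and soluble sugars, improves freezing tolerance and slows growth. The comparison asks which transcripts differ with the factor in leaves that were not chilled.

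The lines were merged into 1 value per clone before deposit, so no spread between lines or slides is available. No standard error, p-value or test could be computed. Sizes, counts and ranks are given, and clones at or past 2-fold, a log2 ratio of 1 in either direction, are called higher or lower. Higher means higher in the transgenic plants, or in the cold plants for the other columns. That direction is likely from the order of the channels in the labels but is not stated. With the opposite direction, higher and lower would change places throughout. For the transgenic S. tuberosum sample the genotype field names the other species, while its title, source and organism name S. tuberosum, which was followed. The log base and any centring are not stated either. The column median was 0.0090, and the medians of the other columns were 0.0090 with 35S::AtCBF3 in S. tuberosum, 0.011, 0.0033 and -0.0054 for cold S. commersonii (2 h, 24 h, 7 d), and -0.0031, 0.0066 and -0.0075 for cold S. tuberosum. The clones are named by identifiers that the file does not pair with genes. The transgene, the known CBF targets and leaf markers could therefore not be looked up, and only the 2 highest and the 2 lowest clones are named. Several clones may carry the same gene, so counts of clones are not counts of genes.

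The transgene column was lopsided: most clones lay near 0, and its upper tail was far longer than its lower tail. Of all clones, 5820 were above 0 and 5546 below. The middle 50% lay between -0.24 and 0.26, and the central spread (SD from the median absolute deviation) was 0.37. The ends were not balanced in this way. The highest percentile of clones began at a log2 ratio of 2.51, and the lowest percentile ended at -1.46. At least 2-fold higher were 660 clones (5.81% of all), and at least 2-fold lower were 353 (3.11%).

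The surplus of higher clones grew with the size of the ratio. At 1.5-fold 1295 clones were higher and 1000 lower, and 56.4% of the changed clones were higher. This share was 65.2% at 2-fold, 76.7% at 3-fold and 85.7% at 4-fold. At 8-fold 64 clones were higher and 4 lower, a share of 94.1%. In S. tuberosum with the same transgene there was no such surplus. There 50.8% of the changed clones were higher at 1.5-fold, 49% at 2-fold and 42.5% at 8-fold, with 37 clones higher and 50 lower at 8-fold. Cold columns had such a surplus at 2 h and 24 h but not at 7 d. At 2-fold the shares were 98.6%, 68.1% and 36.4% in cold S. commersonii, and 95.9%, 89.3% and 38.6% in cold S. tuberosum. At 24 h in S. commersonii the share also grew with size, from 65.8% at 1.5-fold to 86.4% at 4-fold. In S. tuberosum at 24 h it went from 74.7% to 99.2%. At 2 h it went from 94.8% to 99.7% in S. commersonii and from 88.1% to 99.1% in S. tuberosum. The counts near the 2-fold line show how far they depend on its place. On the higher side 70 clones lay between 1.9-fold and 2-fold and 67 between 2-fold and 2.1-fold, and on the lower side 57 and 63.

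The same contrast was seen along the ranks. The highest clone had a log2 ratio of 5.47 (44.3-fold) and the lowest -3.19 (9.15-fold lower). The 10th from the top stood at 4.45 and the 10th from the bottom at -2.59. By the 100th these were 2.61 and -1.56, and by the 500th 1.20 and -0.85. At each of these ranks the upper end was thus further from 0 than the lower end.

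**Figure D1:**
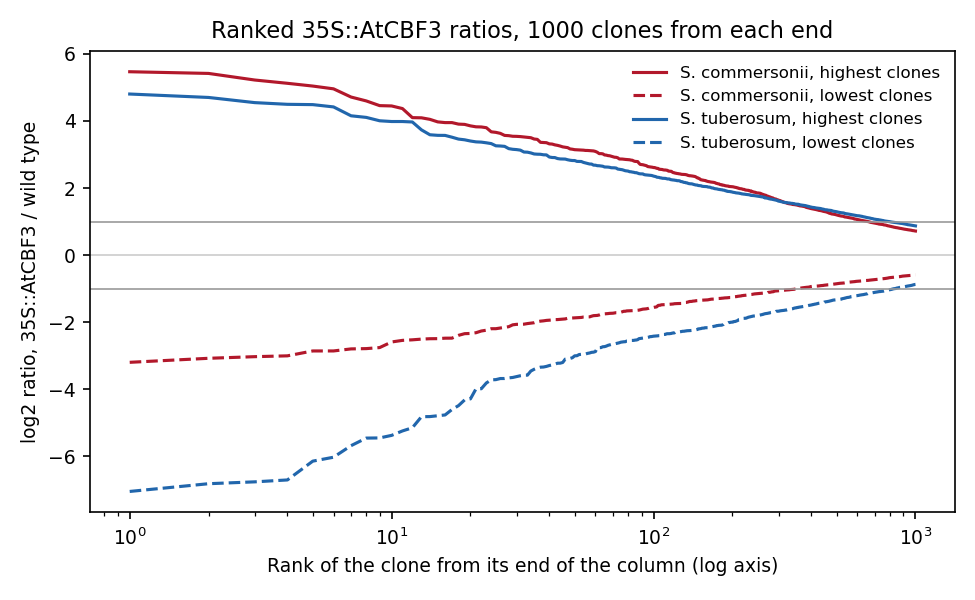
Log2 ratio of 35S::AtCBF3 over wild type (vertical axis) against the rank of a clone from the top or the bottom of its column (horizontal log axis, 1000 clones from each end), for S. commersonii (red) and S. tuberosum (blue); grey lines mark 0 and 2-fold. In S. commersonii the upper end reaches 5.47 and the lower end -3.19, while in S. tuberosum the lower end is the longer one, from 4.80 to -7.04.

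The highest clones were also among the highest in S. tuberosum with the transgene, and they were low after long cold. STMER56 ranked 1 and had a log2 ratio of 5.47 with 35S::AtCBF3 in S. commersonii and 4.42 in S. tuberosum, where it ranked 6. In cold S. commersonii its ratio was -0.44 after 2 h, 0.15 after 24 h and -2.0 after 7 d. In cold S. tuberosum it had -1.11, -1.65 and -3.05. Its transcript was thus high with the transgene in both species and low after 7 d of cold in both. STMFB12 ranked 2 with 5.42, and ranked 3 in S. tuberosum with 4.55. Cold S. commersonii gave -0.50, 0.13 and -2.10, and cold S. tuberosum -1.29, -1.72 and -3.11. The clones resembled each other in every column.

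The 5 highest clones all had this profile. With 35S::AtCBF3 they lay between 5.04 and 5.47 in the wild species and between 3.37 and 4.55 in the cultivated one. At 7 d of cold they lay between -2.10 and -1.46 in S. commersonii and between -3.11 and -3.05 in S. tuberosum. Only at 24 h in S. commersonii were all 5 above 0, between 0.13 and 0.72. Whether these clones carry the same gene is not known here, so they may not be separate transcripts. The next 5 clones differed from them. Of the 10 highest clones, 3 were at least 2-fold higher at 7 d in S. commersonii and 5 at least 2-fold lower.

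The 2 lowest clones had the opposite sign in S. tuberosum. STMIY25 had a log2 ratio of -3.19 with the transgene in S. commersonii, against 1.41 in S. tuberosum, where it ranked 418 from the top. Through 2 h, 24 h and 7 d of cold S. commersonii gave 0.22, -1.22 and -1.56 for it, while S. tuberosum gave 0.16, -1.09 and -0.38. It was thus low after 24 h of cold in both species, and past 2-fold higher only with the transgene in S. tuberosum. STMCO07 stood at -3.07 in S. commersonii but at 0.41 in S. tuberosum. The cold values were -0.02, 0.06 and -1.08 for S. commersonii. For S. tuberosum they were -0.09, -0.45 and -1.07, so its cold ratios were close in the species while its transgene ratios were apart. With 1 value for each species these gaps could not be set against a spread.

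**Figure D2:**
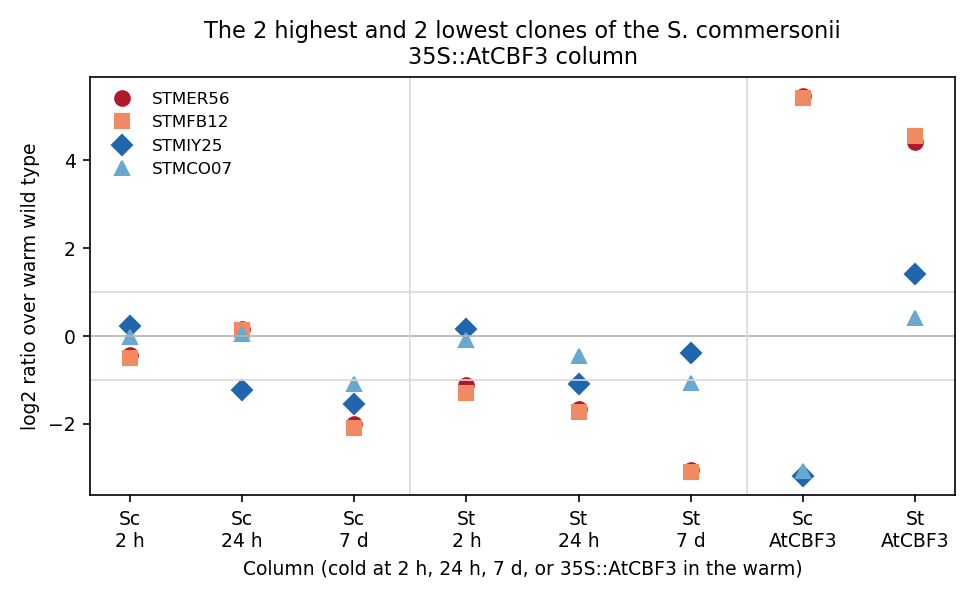
Log2 ratio over warm wild type (vertical axis) of the 2 highest and 2 lowest clones of the S. commersonii 35S::AtCBF3 column in all 8 columns (Sc, S. commersonii; St, S. tuberosum); pale lines mark 2-fold. STMER56 and STMFB12 overlap, above 4.4 in both transgene columns and at or below -2.0 at 7 d of cold, while STMIY25 and STMCO07 lie below -3 with the transgene in S. commersonii and above 0 in S. tuberosum.

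Other clones at the lower end were mixed in S. tuberosum. Of the 10 lowest clones 6 were above 0 there with the transgene, with a median of 0.35 over the 10, but 4 were at least 2-fold lower and 2 at least 2-fold higher. Of the 35 clones at least 4-fold lower in S. commersonii, 10 were above 0 in S. tuberosum, 20 were at least 2-fold lower and 3 at least 2-fold higher. Their S. tuberosum ratios ran from -3.68 to 1.95. Of all clones 7.28% were at least 2-fold lower and 6.99% at least 2-fold higher in S. tuberosum with the transgene. At the upper end all of the 10 highest clones were above 0 in S. tuberosum, with a median of 3.68, and of the 64 clones at least 8-fold higher 61 were above 0, 52 were at least 2-fold higher and 0 were 2-fold lower. Of the 209 clones at least 4-fold higher, the cut that matches the 35, 14 were below 0 in S. tuberosum, 139 were at least 2-fold higher and 6 at least 2-fold lower.

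The S. tuberosum transgene column rests on other plants and another wild type, and it shares no control with that of S. commersonii. Across the size classes of higher clones its ratios increased step by step. For clones 2- to 3-fold higher in S. commersonii the S. tuberosum median was 0.68, and 29.7% of the 347 clones were at least 2-fold higher there. For 3- to 4-fold the median was 1.03 and the share 51.9% of 104. For 4- to 8-fold they were 1.34 and 60% of 145, and over 8-fold 1.87 and 81.2% of 64. Over all clones the median was 0.0090 and 6.99% were at least 2-fold higher. Each step up in S. commersonii thus went with a higher median and a larger share in S. tuberosum.

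The lower clones followed this order only in part. Of the 258 clones 2- to 3-fold lower, 48.4% were at least 2-fold lower in S. tuberosum, with a median of -0.91. For 3- to 4-fold these were 61.7% of 60 and -1.49, and for 4- to 8-fold 61.3% of 31 and -1.65. Over all clones 7.28% were at least 2-fold lower in S. tuberosum. The 4 clones over 8-fold lower broke the order, with a median of 0.42 and 1 of 4 at least 2-fold lower. A class of 4 clones carries little weight.

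**Figure D3:**
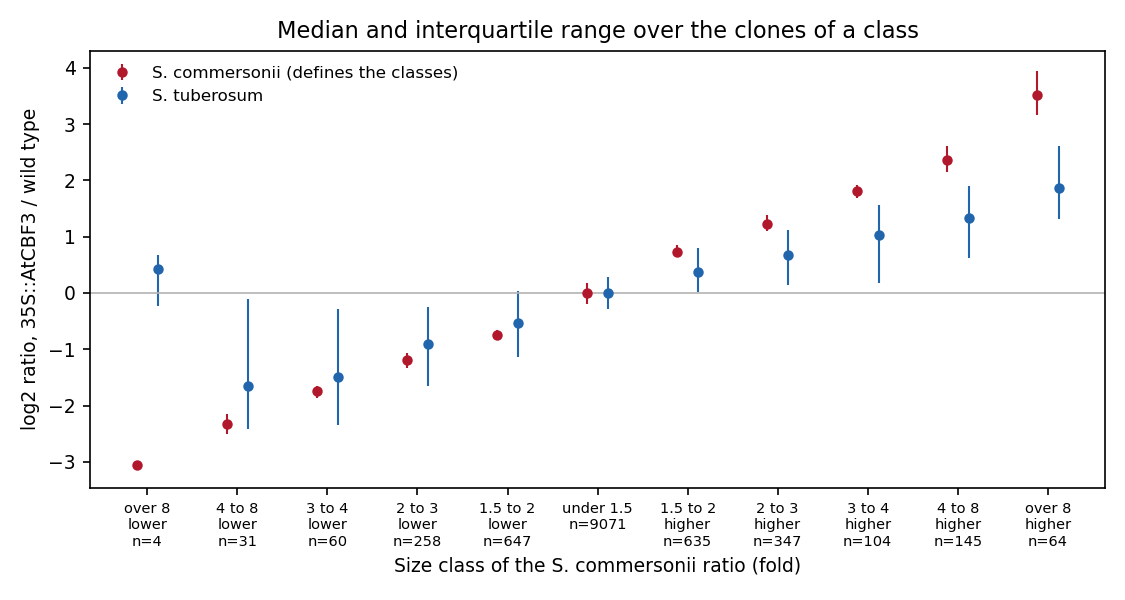
Log2 ratio of 35S::AtCBF3 over wild type (vertical axis) for classes of clones by the size of their S. commersonii ratio (horizontal axis, n clones each); points are medians and bars the interquartile range over clones, red for S. commersonii, which defines the classes, and blue for S. tuberosum. The blue medians increase from -1.65 in the class 4- to 8-fold lower to 1.87 in the class over 8-fold higher, and the class over 8-fold lower (4 clones) stands apart at 0.42.

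As lists, the higher clones had a median of 0.90 in S. tuberosum and the lower clones of -1.06. The 296 clones higher in both species were 44.8% of the S. commersonii list and 37.3% of the S. tuberosum list. The 182 lower in both were 51.6% of the S. commersonii list but 22% of the longer S. tuberosum list. Clones that S. tuberosum did not share were of smaller size on the higher side. The 296 shared higher clones had a S. commersonii median of 1.93, against 1.36 for the 364 others. On the lower side the medians were -1.30 for the 182 shared clones and -1.29 for the 171 others, so the medians were close. Shared lower clones were further from 0 in S. tuberosum, with a median of -1.85. Read from the other side, the 794 clones higher in S. tuberosum had a S. commersonii median of 0.62, and 654 of them were above 0. The 827 lower ones had a median of -0.53, and 701 were below 0.

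The cold columns were read next. The labels do not say whether the wild-type RNA used for the transgenic plants was also that of the S. commersonii cold columns. A wild type present in both ratios would move them in the same direction. Its part in the medians and counts that follow was not tested, and no correlation is given. The S. tuberosum cold columns have controls of their own species. The 660 higher clones had cold medians of 0.11 (2 h), 0.34 (24 h) and 0.19 (7 d) in S. commersonii. In S. tuberosum these were 0.09, 0.25 and 0.16. Most clones on the list were thus under 2-fold in each cold column. The counts past 2-fold stood above those of all clones at 24 h and 7 d. At 24 h in S. commersonii 99 of the 660 were higher (15%, against 2.65% of all clones), and at 7 d 105 (15.9%, against 3.1%). At 2 h the share was 14.2%, and it was 10.9% for all clones. In S. tuberosum the shares were 13.5% at 2 h, 19.2% at 24 h and 17.6% at 7 d, against 7.87%, 11.9% and 4.04% of all clones.

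Of the 3 times in S. commersonii, only at 24 h did the share of higher clones increase at every step of the transgene ratio from 2-fold up. At least 2-fold higher there were 8.07% of the clones 2- to 3-fold higher with the transgene, 14.4% of those 3- to 4-fold, 21.4% of those 4- to 8-fold and 39.1% of those over 8-fold higher. At 7 d the shares were 11.5%, 18.3%, 17.2% and 32.8%. At 2 h there was no such order, with 13%, 19.2%, 14.5% and 12.5%. In S. tuberosum the share increased at every step only at 7 d, with 15.3%, 17.3%, 18.6% and 28.1%. By time in S. commersonii, 62 of the 660 clones were higher at 2 h alone (9.39%, against 9.73% of all clones). At 24 h alone 29 were higher (4.39%, against 0.897%), at 7 d alone 40 (6.06%, against 2.15%) and at both 24 h and 7 d 43 (6.52%, against 0.651%). The share at 2 h alone was thus near that of all clones, and the others were above it. The 24 h and 7 d columns both had controls kept warm for 24 h, and the 2 h column had controls kept warm for 2 h. The part of the control in these counts was not tested. Of all 11366 clones 74 were higher at exactly 24 h and 7 d, so the 43 made up most of that group. At all 3 times 17 of the 660 were higher, of 24 in all. S. tuberosum differed at 2 h alone, with 5.61% of the 660 higher against 1% of all clones. There 24 h alone had 5.15% against 3.89%, and 7 d alone 7.42% against 2.5%. Higher at exactly 2 h and 24 h in S. tuberosum were 4.7%, below the 6.55% of all clones.

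The 353 lower clones had their lowest cold medians at 7 d, also the time with the most lower clones among all clones. At 24 h as at 7 d their shares past 2-fold lower stood above those of all clones. The 7 d median of the 353 was -0.80 in S. commersonii, where it was -0.31 at 24 h and 0.06 at 2 h. The S. tuberosum medians were -0.77 at 7 d, -0.23 at 24 h and 0.0092 at 2 h. At least 2-fold lower at 7 d were 153 of the 353 in S. commersonii (43.3%, against 5.42% of all clones) and 144 in S. tuberosum (40.8%, against 6.42%). At 24 h 34 were lower in S. commersonii (9.63%, against 1.24%), while S. tuberosum had 32 (9.07%, against 1.43%). At that time 37 of the 353 were higher in S. tuberosum (10.5%, against 11.9% of all clones). At 2 h 1 clone was lower in each species, a share of 0.283%, against 0.15% and 0.334% of all clones. In S. commersonii 127 of the 353 were lower at 7 d and at no other time (36%, against 4.55% of all clones). A further 26 were lower at 24 h and 7 d (7.37%, against 0.836%). In S. commersonii the share lower at 7 d moved little with size up to 8-fold. It was 41.9% of the clones 2- to 3-fold lower with the transgene, 45% of those 3- to 4-fold and 48.4% of those 4- to 8-fold lower. Of the 4 clones over 8-fold lower it was 3. The S. tuberosum shares at 7 d were 41.5%, 40% and 35.5%, and 2 of the 4. Of the clones 4- to 8-fold lower 22.6% were higher at 7 d in S. tuberosum, against 4.04% of all clones.

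**Figure D4:**
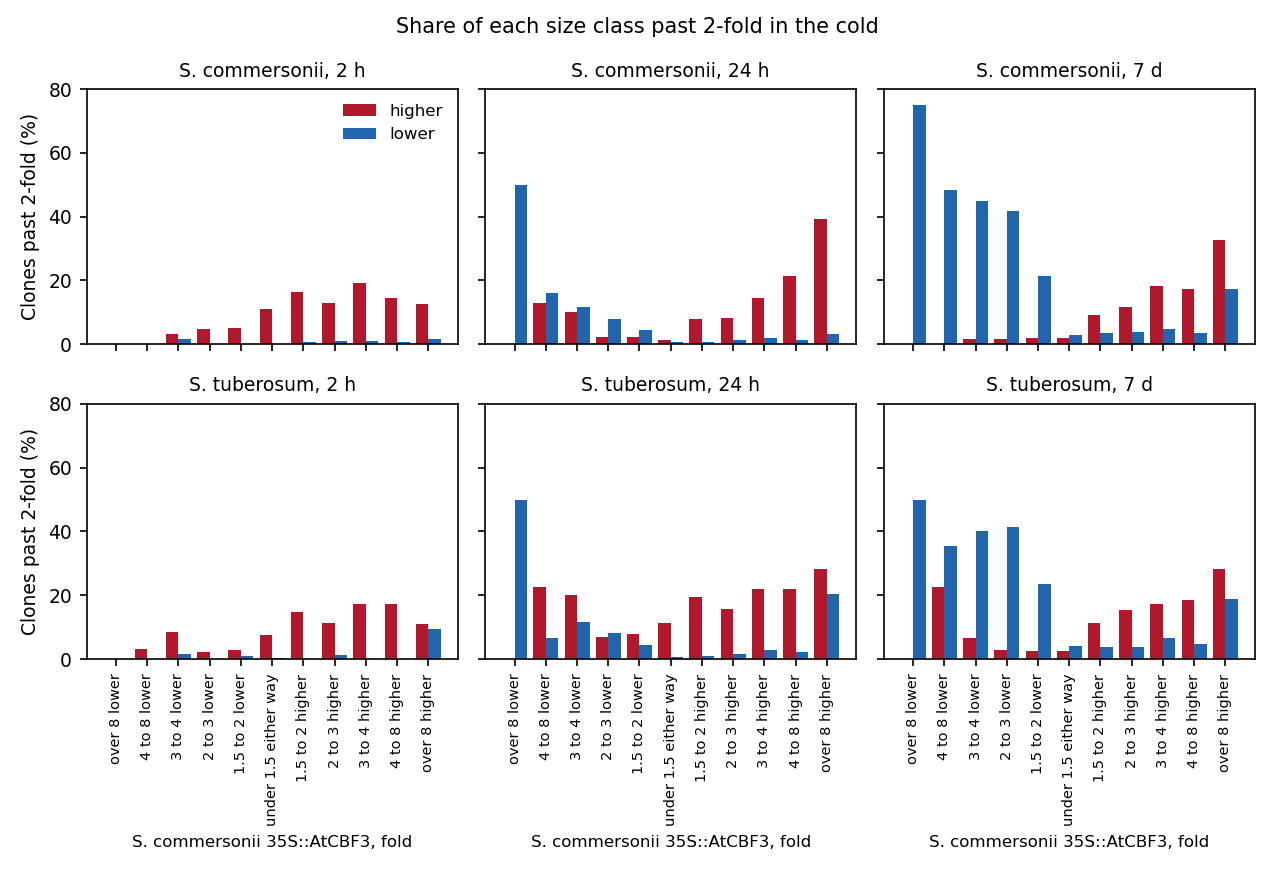
Percentage of clones at least 2-fold higher (red) or lower (blue) in each cold column (6 panels, by species and time), for classes of clones by the size of their S. commersonii 35S::AtCBF3 ratio (horizontal axis, lower classes to the left). At 24 h in S. commersonii the share of higher clones reaches 39.1% in the class over 8-fold higher, and at 7 d the class 2- to 3-fold lower has 41.9% lower clones; the class over 8-fold lower holds 4 clones.

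Taken over the 6 cold columns, 261 of the 660 higher clones (39.5%) were higher in at least 1 and 399 in none, while 17.8% of all clones were higher in at least 1. With S. tuberosum carrying the transgene as the other axis, 151 of the 660 were higher both there and in the cold. A further 145 were higher there but not in the cold, 110 in the cold but not there, and 254 in neither. The median transgene ratio in S. commersonii was 1.85 for the first group, 2.01 for the second, 1.42 for the third and 1.34 for the fourth. Of the 353 lower clones 184 (52.1%) were lower in at least 1 cold column, against 8.69% of all clones. Lower both in S. tuberosum with the transgene and in the cold were 135, and 122 were in neither. The groups made with the S. tuberosum transgene column were not counted over all clones, so their counts only divide the lists.

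Some clones passed 2-fold in the same direction in most cold columns as well. In 4 or more of the 6 cold columns 56 of the 660 clones were higher (8.48%, against 1.6% of all clones), 40 of them in exactly 4. Their medians were 2.06 with the transgene in S. commersonii, 1.36 in S. tuberosum, and 1.16, 1.60 and 1.54 in cold S. commersonii (2 h, 24 h, 7 d). On the lower side 11 of the 353 were lower in exactly 4 cold columns (3.12%) and 0 in more, while 0.361% of all clones were lower in 4 or more. All 11 were lower with the transgene in S. tuberosum, a column not used to choose them, with a median of -2.54. They were also lower at both 24 h and 7 d in S. commersonii, with medians of -1.24 and -2.99. The 56 and the 11 were chosen by their cold values, so their cold medians and counts follow from the choice.

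A few clones had opposite directions with the transgene and in the cold. At least 1 cold column was 2-fold lower for 67 of the 660 higher clones (10.2%), close to the 8.69% of all clones. Of the 660, 16 were lower in 3 or more cold columns (2.42%, against 1.26% of all clones). These 16 had a median of 3.94 with the transgene in S. commersonii, well above the 1.53 of the whole list. They include the 5 highest clones, STMER56 and STMFB12 among them, which may not be separate transcripts. The S. tuberosum median of the 16 with the transgene was 1.22, and 10 of the 16 were at least 2-fold higher. The 7 d medians were -1.82 in S. commersonii, with 15 lower, and -2.16 in S. tuberosum, with 14 lower. At 24 h all 16 were lower in S. tuberosum, with a median of -1.63, and 5 in S. commersonii, with a median of -0.23. The 16 were chosen by their cold values, so these cold medians and counts follow from the choice. The class over 8-fold higher also held both directions at 7 d in S. commersonii, with 21 of 64 clones higher and 11 lower.

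Of the 353 lower clones 14 were higher in 3 or more cold columns. Their share, 3.97%, was below the 7.87% of all clones. Their transgene medians were -1.66 in S. commersonii and, with 9 of the 14 past 2-fold, -1.68 in S. tuberosum. In the cold the medians were furthest from 0 at 24 h, 1.52 in S. commersonii and 2.15 in the other species. All 14 were higher at 24 h in S. tuberosum. These cold values too follow from the way the 14 were chosen.

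The cold lists were also read for their transgene ratios. The 301 clones on the higher list of S. commersonii at 24 h had a median of 0.58 with the transgene, with the middle 50% between 0.15 and 1.38. The 352 higher at 7 d had 0.50, and the 1241 higher at 2 h had 0.23. Of the 616 clones lower at 7 d the median was -0.54, and of the 141 lower at 24 h it was -0.49. Of all clones 91.1% were within 2-fold with the transgene. The share was 91.3% of those higher at 2 h, about the same, but 61.8% of those higher at 24 h, 68.8% of those higher at 7 d and 69.6% of those lower at 7 d.

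A remainder passed 2-fold in no other column, in either direction. These were 211 of the 660 higher clones (32%) and 83 of the 353 lower ones (23.5%), while 67.6% of all clones passed 2-fold in none of the 7 other columns. The 211 ran from 1.0 to 3.50 with a median of 1.32, and 27 of them reached 4-fold. In S. tuberosum with the transgene 169 of the 211 were above 0, with a median of 0.33. The 83 ran from -2.85 to -1.0 with a median of -1.19, and 54 of them were below 0 in S. tuberosum.

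The changed clones were spread over the clone names. Names consist of STM, 2 letters and a number, and the letters form 157 blocks of 36 to 92 clones. What the blocks stand for is not given. All but 3 blocks held a higher clone and all but 27 a lower one. The median ratio of a block ran from -0.26 to 0.24. The 16 blocks richest in higher clones held 19.8% of them, and the 16 richest in lower clones held 26.1%. Blocks chosen in this way hold more than an even share by construction.

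Names that start with STMC made up 13.5% of all clones and held 92 of the 353 lower ones (26.1%). Of these 1538 clones 5.98% were lower, with a median of -0.10. In the same names 17.4% were lower with the transgene in S. tuberosum, 14.2% at 7 d of cold in S. commersonii and 15.9% at 7 d in S. tuberosum. In these 3 columns no other start had a larger share of lower clones. Names that start with STMF, 108 clones, had 17.6% higher clones with the transgene in S. commersonii and 19.4% in S. tuberosum. They also had the largest share of lower clones in S. commersonii, 7.41%, from 8 clones. Block STMFB, which holds the second-ranked clone, had 15 higher clones of 72 and the highest block median, 0.24. Its median in S. tuberosum with the transgene was 0.25, and at 7 d of cold in S. commersonii 0.0036. The part of clone content or of place on the array in these differences was not tested.

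**Figure D5:**
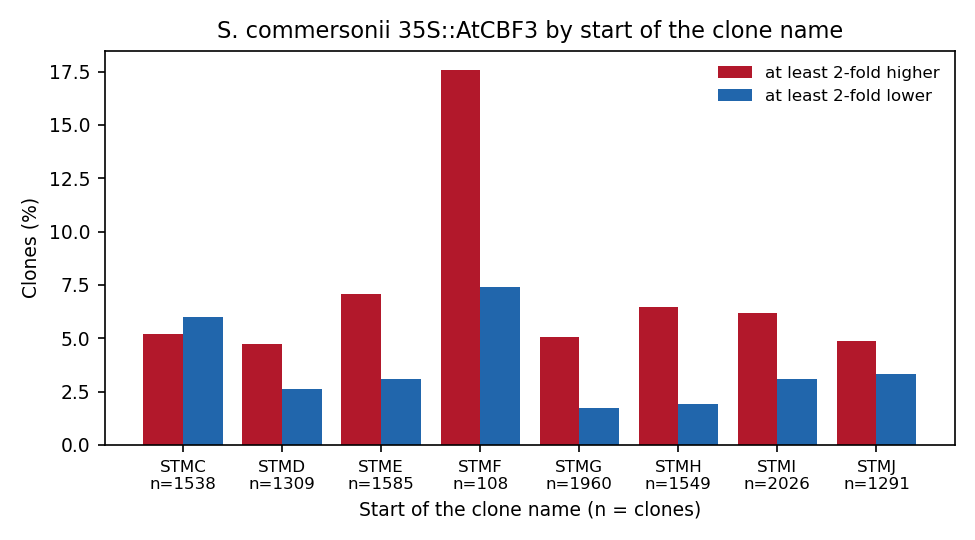
Percentage of clones at least 2-fold higher (red) or lower (blue) with 35S::AtCBF3 in S. commersonii (vertical axis) by the first 4 characters of the clone name (horizontal axis, n clones each). Names in STMF (108 clones) have 17.6% higher clones, and STMC is the only start with more lower than higher clones, 5.98% against 5.2%.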

How the data were processed

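RNA of leaves was hybridised to 2-colour arrays with Cy3 and Cy5, per the labels' protocols; both dyes are listed for either channel. The authors deposited 1 log2 ratio per clone and column, combined from 3 slides (2 for S. tuberosum 35S::AtCBF3). The tool limma is named in the submitters' processing notes. For background, normalization, filters and the merging of slides, no step is given in the sources used here. Base 2 was assumed for the logarithm because limma uses it. With 3 slides the dyes cannot be balanced, so a dye effect can remain. Dim clones were not separated, since signal per slide was not used.

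Counts, medians, ranks and size classes (1.5, 2, 3, 4 and 8-fold) were computed with Python 3.11.15, numpy 2.4.6 and pandas 2.3.3, and the counting was checked on simulated data. The table held 11366 clones with 0 missing values. The clones named are the 2 highest and the 2 lowest of the column. No table that pairs clones with genes was used here, so the planned gene lists and averages per gene were not run. No test was possible with 1 value per clone and column. The comparison and its lists were chosen with earlier results of these data known. Alternatives were thresholds of 1.5-fold and 3-fold, centred columns, columns scaled to one spread, block medians subtracted, and lists of the 500 highest and lowest clones.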

Additional observations from a re-analysis of the deposited data

Results flagged for a closer look

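With 35S::AtCBF3 the 2 lowest clones of S. commersonii had the opposite sign in S. tuberosum. STMIY25 had a difference (S. commersonii minus S. tuberosum) of -4.60 on the log2 scale, and for STMCO07 it was -3.49. Of the 660 higher clones 21 (3.18%) passed 2-fold upward in S. commersonii but downward in S. tuberosum, with medians of 1.58 and -1.66, while 7.28% of all clones were lower in S. tuberosum. Of the 353 lower clones 15 (4.25%) were the reverse, with medians of -1.46 and 1.60, while 6.99% of all clones were higher in S. tuberosum. Both groups had cold medians near 0 in S. commersonii at each time. The 21 had 0.07, -0.02 and 0.05, and the 15 had 0.03, 0.0027 and 0.12 at 2 h, 24 h and 7 d. In cold S. tuberosum the 21 had -0.11, 0.64 and 0.01, and the 15 had -0.02, -0.03 and -0.11. With 1 value per species the difference was not tested for any of them.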

How the results depend on the processing

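Centring the columns or subtracting block medians left all 21 summary values within their limits, which were 1.5 times for counts and 95% binomial intervals over clones for shares and medians. These intervals are only a yardstick for size, since clones are not replicates and give no error of the comparison. A threshold of 1.5-fold moved 12 of the 21 beyond these limits, 3-fold 15, scaling 7 and ranking 1 of 18. The check for a change of sign covered only medians of size 1 or more. That was the median of -1.06 of lower clones in S. tuberosum with the transgene, which kept its sign. At 1.5-fold and 3-fold there were 1295 and 313 higher clones and 1000 and 95 lower clones, and 56.4% and 76.7% of the changed clones were higher. Clones higher in both species numbered 648 and 123, and those lower in both 535 and 46. The S. tuberosum 35S::AtCBF3 median was 0.59 and 1.34 for higher clones and -0.68 and -1.54 for lower ones. With columns scaled to one spread these medians were 0.69 and -0.81, and for the 500 highest clones 1.03. The 16 richest blocks held 26.2% of higher clones at 3-fold, and 20.5% and 38.9% of lower clones at 1.5-fold and 3-fold.

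Cold medians kept their side of 0 except in 2 of 72 values, where the main value was 0.0092 (lower clones, S. tuberosum at 2 h). At 1.5-fold the higher clones had 0.27 at 24 h in S. commersonii, and the lower clones -0.22 at 24 h and -0.56 at 7 d there and -0.55 at 7 d in S. tuberosum. At 3-fold the higher clones had 0.46 and 0.29 at 24 h and 7 d in S. commersonii, with 0.32 and 0.26 for S. tuberosum, and the lower clones 0.17 and -0.24 at 2 h and 24 h in S. commersonii. With scaling the higher clones had 0.18 and 0.43 at 2 h and 24 h in S. commersonii and 0.15 at 2 h in S. tuberosum, and the lower clones -0.39 at 24 h in S. commersonii and -0.66 at 7 d in S. tuberosum. No slide could be left out, and no paired analysis was possible because each column holds 1 combined value.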
